A study of Rattus norvegicus with 32 samples.

Results

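Gene expression of the nucleus accumbens (NAc) and of the hippocampal CA field was compared directly in saline-treated rats. The comparison used the 4 samples labelled NAc Sal and the 4 labelled CA Sal, which are 8 of the 32 RNA-seq samples of the series and were chosen by their labels alone. Every animal was an adult male Sprague-Dawley rat that received saline at 1 mL/kg intraperitoneally, as 4 injections at intervals of 2 h, with the brain collected 24 h after the final one. No animal of these groups received methamphetamine (METH), so the contrast is between brain regions and not between treatments. The NAc was punched from slices of the anterior part of the brain, whereas the CA was scooped from the posterior part after the cortex was lifted off, so that both are pieces of tissue with mixed cell types. Ribosomal RNA was removed from total RNA before library construction. For each sample the authors deposited unnormalized read counts per gene, assigned without regard to strand. Total counts ranged from 11094002 to 14501875 in NAc Sal and from 12888040 to 19350101 in CA Sal. Expression is given here in CPM, the counts relative to library sizes scaled by the upper quartile, on which 1 read is worth 0.0580 to 0.0870 CPM. The labels do not say which animal gave which sample, and p-values measure the spread between these samples.

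The NAc is the ventral part of the striatum. Nearly all of its neurons are GABAergic medium spiny neurons, which carry D1 or D2 dopamine receptors, respond to dopamine through cAMP and DARPP-32 (Ppp1r1b), and release substance P, dynorphin or enkephalin beside GABA. Sparse cholinergic interneurons supply its acetylcholine. The CA fields of the hippocampus are built instead of glutamatergic pyramidal neurons with scattered GABAergic interneurons. In the embryo medium spiny neurons arise in the subpallium under transcription factors such as DLX5, SP9 and ISL1. Pyramidal neurons arise in the pallium under factors such as LHX2, ZBTB18 and the NEUROD proteins.

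A total of 14700 genes passed the filter on low counts and were tested with edgeR's quasi-likelihood test. A gene was called a differentially expressed gene (DEG) with a false discovery rate (FDR, Benjamini-Hochberg adjusted p) under 0.01 and a change of more than 2-fold. By this rule 149 genes were higher in the NAc (1.01% of the genes tested) and 122 were higher in the CA (0.83%), 271 in all (1.84%). Log2 fold changes are NAc minus CA throughout, so a negative value means a higher level in the CA, and ± after them is the standard error. The differences were larger on the NAc side. The median size of the change was 2.19 on the log2 scale among the genes higher in the NAc and 1.65 among those higher in the CA, and 42 and 19 genes respectively differed more than 8-fold. For all 271 DEGs the 4 NAc values did not overlap the 4 CA values, as was the case for 21.9% of all genes tested. At an FDR under 0.05 and the same fold, 413 (2.81%) and 410 (2.79%) genes passed, 5.6% in all. At an unadjusted p under 0.05 there were 4660 genes (31.7%), and the median log2 fold change over all genes tested was 0.05.

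**Figure D1:**
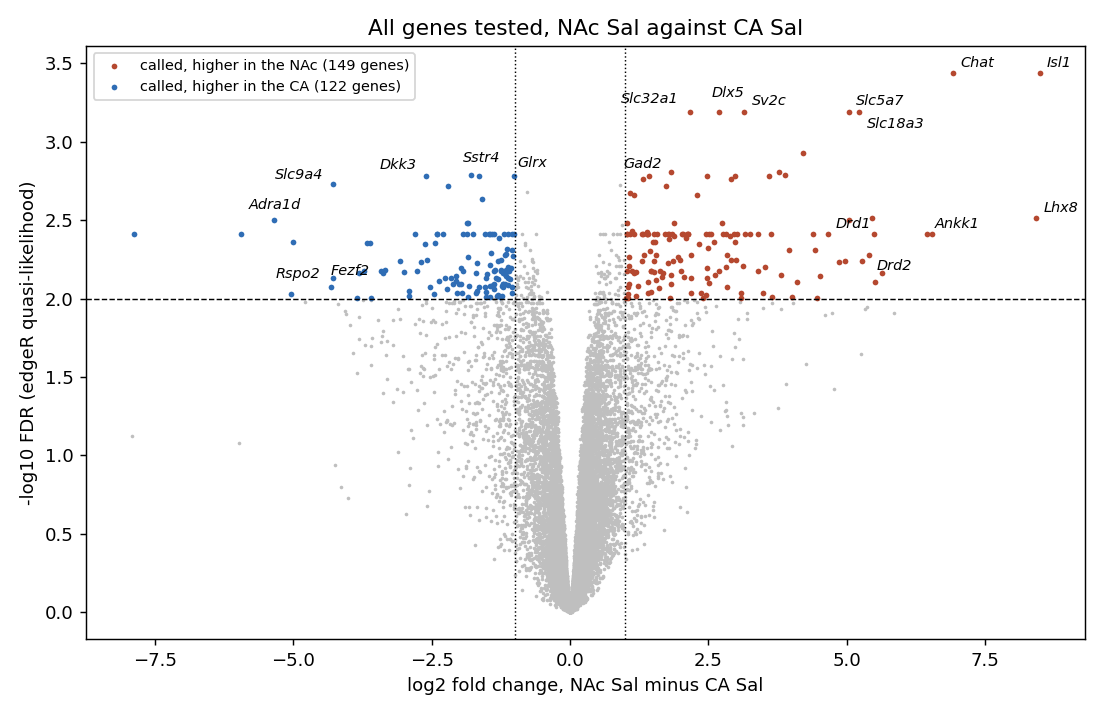
Each point is 1 of the 14700 genes tested, with the log2 fold change (NAc Sal minus CA Sal) on the horizontal axis and −log10 of the FDR from edgeR's quasi-likelihood test on the vertical axis. Dashed and dotted lines mark the FDR of 0.01 and the 2-fold change. The 149 genes called higher in the NAc (red) reach further to the right and higher than the 122 called higher in the CA (blue) reach to the left, with Isl1 and Chat at the lowest FDR of 0.000364.

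How many genes were called depended on the model. NAc and CA samples with the same replicate number deviated together from their group means (correlations across genes 0.140, 0.238, 0.194 and 0.101 for numbers 1 to 4). With the replicate number as a block, 29 genes were called higher in the NAc and 10 in the CA, of which 21 and 8 are among the DEGs above. All 271 DEGs kept an FDR under 0.05 in that fit, the highest being 0.0390 for NAc genes and 0.0397 for CA genes, and the FDR with the block is printed beside each gene whose call it changed. Leaving out 1 library also moved the counts by more than 1.5 times in most cases. The numbers called higher in the NAc and in the CA were 93 and 19 without NAc Sal 2, 19 and 5 without NAc Sal 3, 28 and 13 without CA Sal 1, 80 and 54 without CA Sal 2, 12 and 2 without CA Sal 3, and 32 and 27 without CA Sal 4. Without NAc Sal 1 they were 152 and 53, and without NAc Sal 4 they were 157 and 235. Only 12 of the 149 and 2 of the 122 DEGs were called in all of these fits. DESeq2 called 426 and 507 genes, among them 143 of the 149 and all 122 of the DEGs. No gene was called in 1 fit of all 16 saline samples, nor with the run as a covariate. In these fits 3745 and 1401 genes respectively had an unadjusted p under 0.05. Run here means a grouping read from names in the file headers, whereas the paper states 2 batches for the RNA-seq. This covariate adds several terms to a fit of 8 samples, which leaves less to measure the spread by. Run separates the regions in large part, since NAc Sal 1 and 2 fell in a header group without CA samples. For them run and region cannot be told apart. No DEG changed direction in any of these fits.

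The samples matched their labels by defining markers, although not evenly. The summed level of 36 markers of striatal medium spiny neurons was 20976, 4594, 10212 and 4974 CPM in NAc Sal 1 to 4, against 1167 to 1392 CPM in the CA. The summed level of the CA pyramidal markers was 4325 to 6424 CPM in the CA and 1089 to 2389 CPM in the NAc. NAc Sal 4 was the NAc sample richest in pyramidal markers, with Slc17a7 (the vesicular glutamate transporter VGLUT1) at 663 CPM, against 114, 4.95 and 59.5 CPM in the other NAc samples. CA Sal 1 and 3 held the dentate granule marker Prox1 at 256 and 301 CPM, against 33.8 and 85.6 CPM in CA Sal 2 and 4. In CA Sal 2 the 10 choroid plexus markers summed to 2342 CPM, against 20.6 CPM or less in each other sample. Their part in the differences below was not tested beyond the fits that leave out each library. In bulk tissue, fewer cells of a type and less RNA per cell cannot be told apart.

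Cholinergic genes were among the largest differences between the regions. Chat, which encodes the enzyme that makes acetylcholine, was read at 19.7, 37.6, 27.2 and 33.6 CPM in NAc Sal 1 to 4 and at 0.232, 0.0780, 0.185 and 0.505 CPM in CA Sal 1 to 4. All 4 CA values are worth only a few reads each, and the lowest NAc value is far above the highest CA value. The log2 fold change was 6.91 ± 0.39 (n = 4 per region, FDR = 0.000364 by edgeR's quasi-likelihood test). Slc18a3, the transporter that loads acetylcholine into vesicles, was at 13.2, 28.0, 14.9 and 21.5 CPM against 0.522, 0.624, 0.247 and 0.757 CPM, a log2 difference of 5.23 ± 0.38 (FDR = 0.000645). In rn6 the gene (chromosome 16, 8682669 to 8685529, minus strand) lies within Chat (8577840 to 8686131, same strand), so that the counts of the 2 genes are not fully separate. Slc5a7, which takes up choline for the synthesis, lies apart from them on chromosome 9 and stood at 49.3, 92.4, 63.0 and 71.9 CPM in the NAc and 1.57, 3.82, 1.67 and 1.68 CPM in the CA (log2 difference 5.03 ± 0.34, FDR = 0.000645). NAc Sal 2 was the highest NAc sample for all 3 genes and NAc Sal 1 the lowest. Each of the 3 genes remained a DEG when any 1 of the 8 libraries was left out, and with the replicate block. On the list of interneuron and cholinergic markers, 8 of 15 genes tested were higher in the NAc and 0 in the CA, against 1.01% and 0.83% of all genes tested. The NAc count was 6 with the block and 5 to 9 without each sample in turn.

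Further genes of cholinergic neurons behaved likewise. Slc10a4, an orphan transporter of cholinergic and monoaminergic vesicles that was chosen after its values were seen, was at 22.2 to 40.9 CPM in the NAc and 1.05 to 2.61 CPM in the CA (log2 difference 4.21 ± 0.33, FDR = 0.00118). Prima1, which anchors acetylcholinesterase at membranes and was also chosen after its values were seen, was at 36.1 to 50.6 CPM against 4.69 to 9.34 CPM (2.47 ± 0.22, FDR = 0.00166). Neither range overlaps between the regions. The LIM-homeodomain factor ISL1 and its relative LHX8 specify cholinergic neurons of the basal forebrain, and ISL1 also marks D1 medium spiny neurons. Isl1 was read at 13.6, 13.2, 16 and 18.4 CPM in the NAc, against 0, 0.156, 0 and 0 CPM in the CA. Over the 4 libraries this is 818 reads against 2, a ratio of 444 after correction for library size (95% exact interval 122 to 3668, for counting error only). Lhx8 was at 6.63, 36.1, 18.9 and 19.7 CPM against 0, 0.234, 0 and 0 CPM, which is 1130 reads against 3 and a ratio of 408 (139 to 1984). The fitted log2 fold changes of 8.48 ± 0.49 for Isl1 (FDR = 0.000364) and 8.42 ± 0.88 for Lhx8 (FDR = 0.00306) depend on the prior count where 3 of the 4 CA libraries hold no read. Nkx2-1, a factor of the ventral subpallium, followed the order of Lhx8 within the NAc, with 13.3 CPM in NAc Sal 2 and 3.93 to 5.93 CPM in the others, against 0.232 to 0.555 CPM in the CA (4.40 ± 0.50, FDR = 0.00385, and 0.0106 with the block).

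The DNA before the starts of Chat and Slc18a3 is shown because these adjacent genes had some of the largest differences, together with that of Rarb, a retinoic acid receptor gene higher in the NAc, and of Slc9a4, a sodium/hydrogen exchanger gene higher in the CA. Each window holds 300 bases, 250 before and 50 after the start, from RefSeq on GRCr8, which is not the build of the counts. Capitals mark motifs searched on both strands, namely the retinoic acid response element type, a direct repeat of GTTCA with any 6 letters between, and the NeuroD type E-box CAGATG, which is written CATCTG when it lies on the other strand. The searches for the homeodomain type TAATTA and the cAMP response element TGACGTCA found no match in these 4 windows.
Rarb, chr15:11336142-11336441, plus strand: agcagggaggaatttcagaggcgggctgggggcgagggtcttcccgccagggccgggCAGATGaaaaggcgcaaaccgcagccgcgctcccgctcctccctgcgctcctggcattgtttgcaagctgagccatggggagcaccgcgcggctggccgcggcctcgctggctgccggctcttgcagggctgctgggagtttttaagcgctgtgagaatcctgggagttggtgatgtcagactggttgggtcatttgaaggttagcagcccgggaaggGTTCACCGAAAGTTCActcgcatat
Chat, chr16:7723367-7723666, minus strand: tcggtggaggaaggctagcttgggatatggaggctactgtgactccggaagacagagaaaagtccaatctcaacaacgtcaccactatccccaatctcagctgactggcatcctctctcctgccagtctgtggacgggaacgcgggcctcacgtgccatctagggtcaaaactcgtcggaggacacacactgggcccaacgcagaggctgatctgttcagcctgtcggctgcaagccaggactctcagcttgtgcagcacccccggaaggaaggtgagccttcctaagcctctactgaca
Slc18a3, chr16:7722765-7723064, minus strand: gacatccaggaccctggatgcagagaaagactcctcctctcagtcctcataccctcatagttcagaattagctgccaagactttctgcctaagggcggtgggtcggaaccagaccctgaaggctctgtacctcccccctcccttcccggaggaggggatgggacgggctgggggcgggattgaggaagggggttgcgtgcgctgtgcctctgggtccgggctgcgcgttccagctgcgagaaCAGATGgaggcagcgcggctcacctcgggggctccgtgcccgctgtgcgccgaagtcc
Slc9a4, chr9:50320698-50320997, plus strand: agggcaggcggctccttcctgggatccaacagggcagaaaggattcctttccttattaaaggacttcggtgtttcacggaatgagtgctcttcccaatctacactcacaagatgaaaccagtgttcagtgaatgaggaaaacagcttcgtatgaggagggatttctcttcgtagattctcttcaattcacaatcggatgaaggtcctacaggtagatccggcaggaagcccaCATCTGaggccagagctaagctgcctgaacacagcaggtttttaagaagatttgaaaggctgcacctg
The windows of Chat and Slc18a3 are separated by 302 bases. The Rarb window holds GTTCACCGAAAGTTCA at positions 276 to 291, counted from 1 at the 5′ end. This motif was in 5 of the 10476 genes tested that have a promoter in the table (0.048%), of which Rarb is the only one among the 110 DEGs with a promoter that were higher in the NAc (0.909%). Of the 77 DEGs with a promoter that were higher in the CA, 0% held it. CAGATG was in 11.8% of the promoters of NAc genes and 16.9% of those of CA genes, against 10.8% of all tested. TAATTA was in 2.73% and 1.3% against 2.05%, and TGACGTCA was in 0.909% and 3.9% against 3.07%. These are matches of letters and say nothing of whether a protein binds there.

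Genes of medium spiny neurons formed the largest group higher in the NAc. Of the 35 list members tested, 20 were DEGs higher in the NAc and 0 were higher in the CA, against 1.01% and 0.83% of all genes tested. All 35 had a log2 fold change above 0, with a median of 3.06 against 0.05 for all genes tested. The count of 20 fell to 1 with the replicate block, and to 14, 1, 2, 9, 1 and 3 without NAc Sal 2, NAc Sal 3, CA Sal 1, CA Sal 2, CA Sal 3 and CA Sal 4, while it was 21 without NAc Sal 1 or NAc Sal 4 and 29 with DESeq2. The D1 receptor gene Drd1 was at 392, 95.4, 228 and 137 CPM in NAc Sal 1 to 4 and at 3.88, 15.2, 7.22 and 7.90 CPM in CA Sal 1 to 4 (log2 difference 4.66 ± 0.56, FDR = 0.00385, and 0.0220 with the block). The D2 receptor gene Drd2 was at 363, 82.1, 165 and 63.0 CPM in the NAc and 1.68, 8.58, 2.47 and 3.53 CPM in the CA (5.41 ± 0.73, FDR = 0.00531, and 0.0229 with the block). Within the NAc both receptor genes spread widely, with NAc Sal 1 highest, yet neither approached the CA range. Ankk1, the kinase gene next to Drd2, was at 3.91 to 21.0 CPM against 0.252 CPM or less in every CA sample (6.45 ± 0.77, FDR = 0.00385, and 0.0106 with the block). Its CA values are not distinguishable from a count of 0, so this fitted value depends on the prior count. Drd5 was not called, at 0.867 to 1.69 CPM in the NAc and 0.406 to 4.32 CPM in the CA (FDR = 0.417), and Drd3 and Drd4 did not pass the filter on low counts. Syndig1l, a synapse protein gene of striatal neurons, and Sh3rf2 were at 53.7 to 351 CPM against 0.928 to 7.64 CPM and at 9.40 to 56.1 CPM against 0.0580 to 1.40 CPM (FDR = 0.00782 and 0.00689, and 0.0274 and 0.0265 with the block). Ecel1, an endopeptidase-like gene that is not on the list, was at 65.6, 128, 71.9 and 92.2 CPM in the NAc and 0.696, 5.92, 1.97 and 2.86 CPM in the CA (5.04 ± 0.54, FDR = 0.00315). Its order within the NAc, with NAc Sal 2 highest, was unlike that of the receptor genes.

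The peptides that these neurons release differed in size of change. Tac1, the precursor of substance P, was at 207, 34.5, 105 and 79.7 CPM in the NAc and 2.15, 6.86, 4.26 and 6.98 CPM in the CA (4.43 ± 0.59, FDR = 0.00491, and 0.0261 with the block). Penk, the precursor of the enkephalins, was at 1209, 352, 726 and 253 CPM against 18.1, 87.0, 30.9 and 22.8 CPM (4.01 ± 0.67, FDR = 0.00978, and 0.0274 with the block). Both peptide genes were separated between the regions. Pdyn, the dynorphin precursor, was not called, and its 80.8 to 196 CPM in the NAc overlapped 18.8 to 88.2 CPM in the CA, where dentate granule cells also express it (1.41 ± 0.47, FDR = 0.0748). Among the opioid receptors, Oprk1 (2.69 ± 1.62 CPM in the CA and 20.8 ± 5.77 CPM in the NAc, mean ± SD, n = 4) had a log2 difference of 3.0 ± 0.41 (FDR = 0.00564, and 0.0229 with the block). Oprm1 was at 16.8 to 36.5 CPM against 7.99 to 9.38 CPM (1.55 ± 0.21, FDR = 0.00530, and 0.0149 with the block). It overlaps Ipcef1 on the opposite strand and several genes without a given symbol. Among the latter, a gene on the opposite strand was itself a DEG higher in the NAc (log2 difference 2.19, FDR = 0.00738). Counts were made without strand, so strand does not separate the reads of these genes. Oprd1 was not called (0.94 ± 0.34, FDR = 0.0989). The neuropeptide gene Trh was at 3.01, 8.73, 4.0 and 1.95 CPM in the NAc and 0.0841 to 0.638 CPM in the CA (3.66 ± 0.62, FDR = 0.00978, and 0.0165 with the block). Tacr1, the receptor of substance P, was at 7.08 to 9.71 CPM against 1.6 to 3.07 CPM (1.85 ± 0.22, FDR = 0.00385, and 0.0131 with the block), so ligand and receptor were both higher in the NAc.

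The path from dopamine receptors to cAMP and DARPP-32 was higher in the NAc at several steps. Ppp1r1b, which encodes DARPP-32, was at 2509, 467, 1097 and 505 CPM in the NAc and 59.4, 116, 58.4 and 92.8 CPM in the CA (3.82 ± 0.58, FDR = 0.00704, and 0.0295 with the block). Gnal, the G protein alpha subunit that couples striatal receptors to adenylyl cyclase, was at 350.2, 139, 272 and 157 CPM against 31.5, 35.5, 35.8 and 15.2 CPM (2.97 ± 0.37, FDR = 0.00385, and 0.0106 with the block). The adenylyl cyclase gene Adcy5 was at 1995, 561, 1169 and 612 CPM against 131 to 206 CPM (2.7 ± 0.40, FDR = 0.00671, and 0.0265 with the block). All 3 genes had their lowest NAc value in NAc Sal 2. Gng7, a G protein gamma subunit that overlaps Olr1059 on the other strand, and the regulator Rgs9, which speeds the decay of the G protein signal, had log2 differences of 2.82 ± 0.41 (FDR = 0.00629, and 0.0107 with the block) and 4.87 ± 0.69 (FDR = 0.00589, and 0.0265 with the block). The phosphodiesterases Pde7b and Pde8b, which break down cAMP, were DEGs as well, at 59.8 to 201 CPM against 15.7 to 28.3 CPM and at 84.1 to 149 CPM against 33.2 to 60.1 CPM (FDR = 0.0144 and 0.0198 with the block). Over the whole list of cAMP synthesis, breakdown and targets, 7 of 38 members were higher in the NAc and 0 in the CA, against 1.01% and 0.83% of all genes tested. With the FDR limit loosened to 0.05, 11 members passed on the NAc side and 1 on the CA side, against 2.81% and 2.79%. An unadjusted p under 0.05 was reached by 17 and 6 members respectively, against 2601 and 2059 of all 14700 genes tested. The counts on the CA side were near the shares over all genes. Of the 38, 25 had a log2 fold change above 0, and the lowest value was −1.69. The cyclase genes Adcy1 and Adcy9 and the phosphodiesterase gene Pde1a lay on the CA side, and none of them was a DEG. The list had a median of 0.33 on the log2 scale, so most members of the pathway did not pass the test. With the block 0 of them were called, and without each sample in turn 0 to 7. Adora2a, the adenosine receptor gene of D2 neurons, missed the FDR threshold despite a log2 difference of 5.34 ± 0.96 (FDR = 0.0117). CA Sal 2 held it at 17.9 CPM and the other CA samples at 1.68 to 3.21 CPM.

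**Figure D2:**
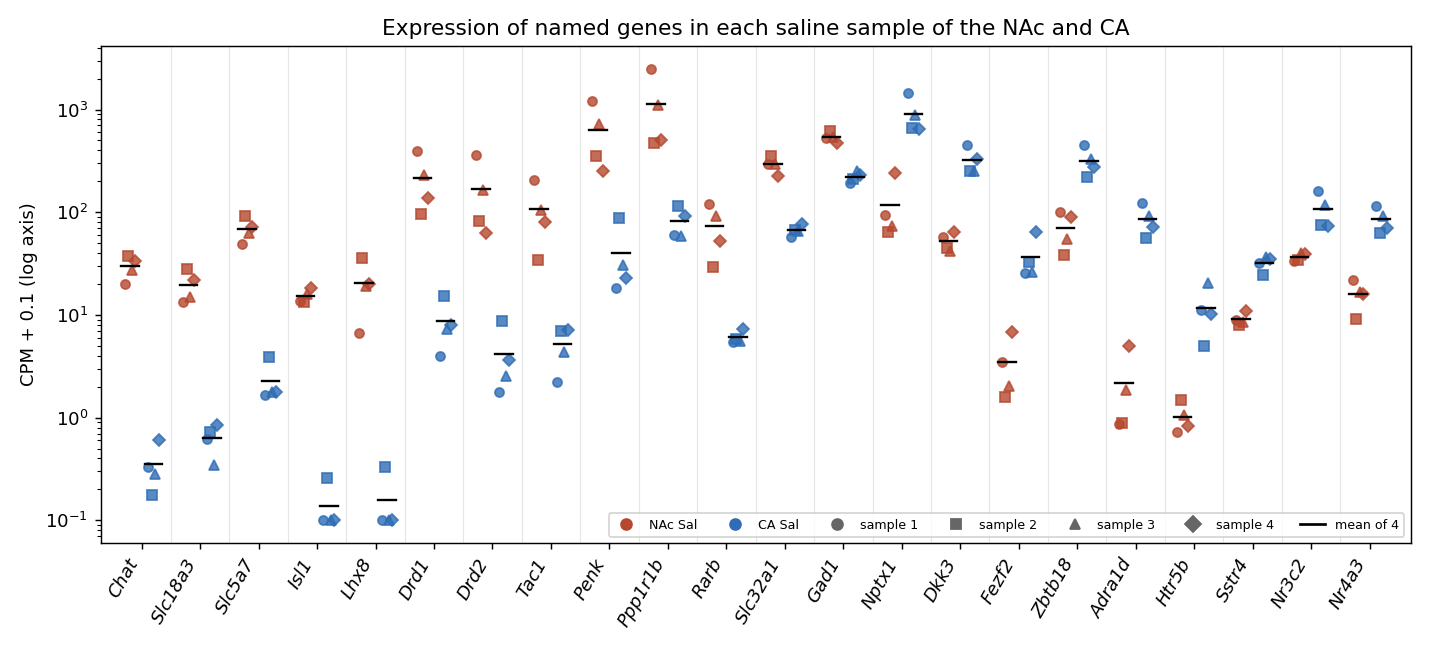
Expression of 22 named genes in each saline sample, as CPM plus 0.1 on a log axis, with NAc Sal in red and CA Sal in blue, 1 symbol shape per sample number and a black bar at the mean of 4. The striatal genes Drd1, Drd2, Tac1, Penk and Ppp1r1b spread several-fold within the NAc with sample 1 on top (Ppp1r1b 467 to 2509 CPM), whereas Slc32a1 (225 to 356 CPM) and Gad1 (475 to 622 CPM) stayed close together, and no gene shown overlaps between the regions.

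GABAergic genes showed smaller but tighter differences. Slc32a1, the vesicular GABA transporter, was at 294, 356, 297 and 225 CPM in the NAc and 57.4, 67.7, 65.5 and 76.3 CPM in the CA (2.16 ± 0.15, FDR = 0.000645). Gad1, a GABA-synthesizing enzyme, was at 526, 622, 535 and 475 CPM against 193, 209.7, 251 and 228 CPM (1.32 ± 0.12, FDR = 0.00173, and 0.0106 with the block). Its sister enzyme gene Gad2 was at 748 to 1103 CPM against 256 to 272 CPM (1.82 ± 0.15, FDR = 0.00155). Their SEs of 0.12 to 0.15 were smaller than the 0.56 of Drd1, and NAc Sal 2 rather than NAc Sal 1 was the highest NAc sample for all 3 genes. The interneuron genes Sst and Pvalb were not called. Sst was at 50.4 to 80.2 CPM in the NAc and 39.7 to 76.9 CPM in the CA (FDR = 0.883), and Pvalb at 8.18 to 15.7 CPM against 18.6 to 43.8 CPM (FDR = 0.0381). On the receptor side, Gabrg3 was higher in the NAc (1.55 ± 0.24, FDR = 0.00763, and 0.0288 with the block) and Gabra5, the alpha subunit of extrasynaptic receptors in the hippocampus, was higher in the CA, at 18.7, 36.0, 42.8 and 43.7 CPM against 208, 117, 134 and 96.9 CPM (−1.95 ± 0.32, FDR = 0.00916, and 0.0378 with the block). Both receptor genes overlap Luzp2 on the opposite strand. They were the only DEGs of 17 GABA receptor genes tested, 1 in each direction, against 1.01% and 0.83% of all genes tested.

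Transcription factors divided by their place of origin. Over all genes tested, 1.01% were called higher in the NAc and 0.83% in the CA. Of 22 subpallial factors tested, 9 were higher in the NAc and 0 in the CA (median log2 fold change 2.00), whereas of 22 pallial factors 0 were higher in the NAc and 6 in the CA (median −1.86). With the block 3 of the former and 1 of the latter were called, and without each sample in turn 2 to 9 and 0 to 13, the lowest counts being those without NAc Sal 3 or CA Sal 3 and the highest of the latter that without NAc Sal 4. Dlx5 was at 28.9, 20.3, 21.4 and 16.9 CPM in the NAc and 3.13, 4.29, 2.78 and 3.53 CPM in the CA (2.7 ± 0.20, FDR = 0.000645). Sp9, needed by D2 neurons, was at 9.69 to 25.2 CPM against 3.76 to 4.35 CPM (2.11 ± 0.26, FDR = 0.00385, and 0.0115 with the block), and Zfp503 was at 19.2 to 27.6 CPM against 5.10 to 9.25 CPM (1.71 ± 0.19, FDR = 0.00385, and 0.0106 with the block). The related genes Dlx1 and Dlx2 were not called, with FDRs of 0.757 and 0.493 and log2 differences of −0.11 and 0.22. Of the pallial factors, Fezf2 was at 3.39, 1.5, 1.91 and 6.72 CPM in the NAc and 25.5, 32.6, 25.9 and 63.7 CPM in the CA (−3.41 ± 0.50, FDR = 0.00671). Zbtb18, a repressor needed for cortical and hippocampal development, was at 100.1, 38.1, 54.3 and 90.7 CPM against 447, 221, 329 and 276 CPM (−2.15 ± 0.33, FDR = 0.00738, and 0.0104 with the block). Nfib, Zeb2, Tcf4 and Lhx2 were higher in the CA with log2 differences of −1.87, −1.54, −1.37 and −1.70, and with FDRs of 0.0203, 0.0124, 0.0107 and 0.0165 with the block. The gene listed as Nf1x, a name that RefSeq gives as a synonym of Nfix, was at 54.6 to 73.5 CPM in the NAc and 147 to 221 CPM in the CA (−1.65 ± 0.15, FDR = 0.00166, and 0.0106 with the block). Neurod6, a marker of pyramidal neurons, had the largest difference of the pallial factors, at 2.78, 0.456, 2.35 and 13.9 CPM against 241, 100.4, 106 and 105 CPM. It just missed the threshold (−4.79 ± 0.82, FDR = 0.0105), and its highest NAc value was in NAc Sal 4, the sample with the most Slc17a7.

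Retinoid receptor genes did not share a direction. Rarb was at 119, 28.9, 91.6 and 52.3 CPM in the NAc and held to 5.39, 5.77, 5.49 and 7.15 CPM in the CA (3.63 ± 0.41, FDR = 0.00385, and 0.0126 with the block). Rxrg, its partner in striatal neurons, was not called, and its 22.9 to 137 CPM in the NAc stood only just above the 5.51 to 21.6 CPM of the CA (2.13 ± 0.69, FDR = 0.0705). Rara was at 8.87, 8.21, 9.92 and 11.3 CPM in the NAc and 17.7, 16.3, 19.4 and 23.2 CPM in the CA. Its difference of −0.97 ± 0.15 (FDR = 0.00723) was opposite to that of Rarb but smaller than 2-fold. Of 16 retinoid genes tested, Rarb was the only DEG, against 1.84% of all genes tested.

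Several receptor genes were higher in the CA. Adra1d, the alpha-1D adrenergic receptor, was at 123, 56.4, 91.9 and 71.1 CPM in CA Sal 1 to 4 and at 0.771, 0.782, 1.74 and 4.92 CPM in NAc Sal 1 to 4 (−5.34 ± 0.57, FDR = 0.00315, and 0.0110 with the block). The serotonin receptor gene Htr5b was at 11, 4.91, 20.2 and 10.2 CPM against 0.617 to 1.37 CPM in the NAc (−3.61 ± 0.47, FDR = 0.00441, and 0.0165 with the block). Together with the muscarinic receptor gene Chrm3 (−1.35 ± 0.20, FDR = 0.00657, and 0.0126 with the block) they were the 3 DEGs of 26 genes for serotonin, muscarinic, adrenergic, cannabinoid and adenosine receptors, 0 of which were called higher in the NAc. Over all genes tested 0.83% were called higher in the CA. The list as a whole did not lean to the CA, with 16 of 26 genes above 0 and a median of 0.26 on the log2 scale. At an FDR under 0.05 and more than 2-fold, the list had 7 genes higher in the NAc and 4 in the CA, against 2.81% and 2.79%. With the block 0 of its genes were called higher in the CA, and without each sample in turn 0 to 3. Sstr4, a somatostatin receptor, was at 31.7, 24.5, 36.5 and 35.1 CPM in the CA and 8.87, 7.89, 8.52 and 10.8 CPM in the NAc (−1.80 ± 0.15, FDR = 0.00162). The 4 samples of each region lay close together for Sstr4, and it stayed a DEG without any 1 library and with the block. The same holds for only 1 other gene higher in the CA, the secreted Wnt modulator Dkk3, at 454, 253, 249.8 and 327 CPM against 57.4, 45.2, 42.0 and 64.2 CPM (−2.59 ± 0.23, FDR = 0.00166). Glrx, which encodes the redox enzyme glutaredoxin, was called with a small but even difference, at 33.1 to 39.9 CPM in the CA and 15.8 to 18.6 CPM in the NAc (−1.01 ± 0.09, FDR = 0.00166, and 0.0106 with the block).

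Rspo2 and Wnt4, which act in the same pathway as Dkk3, were DEGs as well. Rspo2, which strengthens Wnt signals at the receptor, was at 141, 59.1, 74.2 and 44.8 CPM in the CA and 2.54, 1.37, 2.09 and 10.0 CPM in the NAc (−4.28 ± 0.66, FDR = 0.00738, and 0.0233 with the block). The ligand gene Wnt4 was at 95.3, 40.0, 117 and 37.1 CPM against 4.63, 4.50, 3.91 and 9.25 CPM (−3.67 ± 0.48, FDR = 0.00442, and 0.0216 with the block). For both genes NAc Sal 4 was the highest NAc sample. Met, the receptor of hepatocyte growth factor, was at 13.7 to 47.9 CPM in the CA and 0.609 to 4.48 CPM in the NAc (−3.82 ± 0.57, FDR = 0.00689, and 0.0176 with the block). The sodium/hydrogen exchanger genes Slc9a4 and Slc9a2 are neighbours on rn6 chromosome 9, at 47281961 to 47328839 and at 47386626 to 47491907, both on the plus strand. Slc9a4 was at 52.6, 38.0, 50.8 and 26.2 CPM in the CA and 0.848, 1.76, 2.09 and 3.69 CPM in the NAc (−4.28 ± 0.40, FDR = 0.00187, and 0.0126 with the block), and Slc9a2 was at 26.8 to 49.1 CPM against 0.463 to 7.30 CPM (−3.85 ± 0.65, FDR = 0.00987, and 0.0292 with the block). For both exchangers NAc Sal 4 was the highest NAc sample and CA Sal 4 the lowest CA sample. Mei1, known from meiosis, was at 16.8 to 43.0 CPM in the CA and 0.0771 to 3.40 CPM in the NAc (−4.32 ± 0.70, FDR = 0.00845, and 0.0306 with the block). Chst9, a sulfotransferase gene, was at 5.38 to 22.3 CPM against 0.617 to 1.3 CPM (−3.72 ± 0.54, FDR = 0.00671, and 0.0140 with the block). Klk8, which encodes the hippocampal protease neuropsin and was chosen after its values were seen, had 410 reads in the 4 CA samples (10.6, 1.95, 9.38 and 4.20 CPM) and 1 read in the NAc, a ratio of 378 after correction for library size with a 95% counting interval of 67.5 to 14970.

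Markers of CA pyramidal neurons were mostly higher in the CA but seldom passed the test. Of 26 tested, 22 had a log2 fold change below 0 and the median was −1.28. Only Lhx2 and Nptx1 were DEGs, where 0.83% of all genes tested were called higher in the CA. Without NAc Sal 4 the count was 8, with the block it was 0 and with DESeq2 it was 11. Nptx1, a pentraxin that clusters glutamate receptors, was at 1448, 660.2, 876 and 642 CPM in the CA and 94.9, 63.9, 73.9 and 241 CPM in the NAc (−2.91 ± 0.49, FDR = 0.00967, and 0.0227 with the block). Slc17a7 was at 1602 to 2208 CPM in the CA and, with NAc Sal 4 at 663 CPM, was not called (−3.11 ± 1.11, FDR = 0.0945). Dentate granule markers had a median of −1.12 and 1 DEG of 10, the channel gene Trpc6 (FDR = 0.00809, and 0.0245 with the block). Among the cortical layer markers Fezf2 was the only DEG of 10.

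Ion channel and presynaptic genes were called in both directions. Of 50 potassium channel genes tested, 3 were higher in the NAc and 4 in the CA (0 and 1 with the block), against 1.01% and 0.83% of all genes tested. Kcna5, a voltage-gated channel subunit, was at 17.5 to 27.8 CPM in the NAc and 1.33 to 4.52 CPM in the CA (2.98 ± 0.38, FDR = 0.00433, and 0.0151 with the block). Kcnh4 and Kcnj2 were also higher in the NAc, and the channel subunits Kcng2 and Kcnab2 were among those higher in the CA. With the block the FDRs of Kcng2, Kcnab2, Kcnj2 and Kcnh4 lay between 0.0144 and 0.0337. Of the 31 glutamate receptor genes, 2 were higher in the NAc and 0 in the CA, among them Grm4 (1.99 ± 0.28, FDR with the block 0.0262), which overlaps Ppil1. At an FDR under 0.05 and more than 2-fold there were 3 and 4, against 2.81% and 2.79% of all genes tested, and the median was 0.08. With the block 0 genes of the list were called higher in the NAc, and without each sample in turn 0 to 3. The calcium channel subunit gene Cacna2d2 was at 149, 259, 168 and 163 CPM in the NAc and 32.9, 49.6, 32.6 and 62.3 CPM in the CA (2.09 ± 0.27, FDR = 0.00409, and 0.0104 with the block). Prkch, a protein kinase C gene, was higher in the NAc (16.9 to 36.5 CPM against 1.6 to 5.38 CPM, 2.84 ± 0.39, FDR = 0.00531, and 0.0126 with the block). Of the synaptic vesicle genes, Sv2c was at 143, 103, 142 and 98.6 CPM in the NAc and 9.39, 18.6, 14 and 13.7 CPM in the CA (3.15 ± 0.22, FDR = 0.000645) and Syt6 was higher in the NAc too (2.55 ± 0.32, FDR = 0.00385, and 0.0198 with the block). Syn1, the synapsin I gene, was at 625 to 936 CPM in the CA and 256 to 403 CPM in the NAc (−1.43 ± 0.19, FDR = 0.00513, and 0.0107 with the block), and it overlaps Timp1 and Araf on the opposite strand.

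Guidance genes included a ligand and a receptor of the netrin system called in opposite directions. Ntn1, the netrin-1 gene, was at 32.4, 28.9, 48.9 and 39.6 CPM in the NAc and 4.64, 5.46, 2.84 and 6.39 CPM in the CA (2.99 ± 0.26, FDR = 0.00166, and 0.0107 with the block). Unc5a, a netrin receptor, was at 173, 161, 222 and 125 CPM in the CA and 30.5, 38.3, 38.6 and 77.4 CPM in the NAc (−1.85 ± 0.31, FDR = 0.00982, and 0.0285 with the block). They and Efna3 (−1.11 ± 0.14, FDR with the block 0.0140) were the DEGs of 60 guidance and adhesion genes, of which 27 had a log2 fold change above 0. This is 1 gene higher in the NAc and 2 in the CA, against 1.01% and 0.83% of all genes tested, and with the block it was 1 and 0. Of 9 corticosteroid genes tested, 2 were higher in the CA. The mineralocorticoid receptor gene Nr3c2 was at 162, 74.2, 117 and 73.7 CPM in the CA and 33.4, 34.3, 40.4 and 38.9 CPM in the NAc (−1.51 ± 0.25, FDR = 0.00971, and 0.0268 with the block), and Hsd11b1, which regenerates active corticosterone, was at 28.3 to 41.4 CPM against 10.7 to 20.0 CPM (−1.22 ± 0.19, FDR = 0.00829, and 0.0138 with the block). The call of Nr3c2 was lost when any 1 library was left out (FDR 0.0109 to 0.0387). Unc5a and Hsd11b1 were each called in only 1 of these fits.

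Immediate early genes, which neurons switch on with activity, were mostly not called, and those called were higher in the CA. Of 18, 2 were higher in the CA and 0 in the NAc, against 0.83% and 1.01% of all genes tested. At an FDR under 0.05 and more than 2-fold there were 4 and 0, against 2.79% and 2.81%. With the block 1 was called higher in the CA, and without each sample in turn 0 to 4. The median of the 18 was −0.29 on the log2 scale. Nr4a3 was at 116, 62.8, 92.6 and 70.0 CPM in the CA and 22.0, 9.06, 16.7 and 15.8 CPM in the NAc (−2.41 ± 0.28, FDR = 0.00385), and it remained a DEG with the block. Jun was at 102 to 167 CPM against 32.6 to 60.9 CPM (−1.52 ± 0.23, FDR = 0.00738, and 0.0265 with the block). Fos and Egr1 were not called, with FDRs of 0.709 and 0.981.

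Glial and vascular markers gave 0 DEGs in either direction, against 1.84% of all genes tested. At that share lists this short may hold none, so the absence of calls is not a result about glia. All 12 oligodendrocyte markers had log2 fold changes above 0, between 0.38 and 0.79 with a median of 0.64, and the lowest FDR among them was 0.117. Their summed level was 13320, 12112, 8010 and 4541 CPM in NAc Sal 1 to 4 and 7615, 5655, 3514 and 7290 CPM in CA Sal 1 to 4, so the regions overlapped. The 12 astrocyte markers summed to 4376 to 4934 CPM in the NAc and 4288 to 5480 CPM in the CA, and their median difference was 0.04 on the log2 scale. Gfap within that list was at 226 to 278 CPM in the NAc and 379.8 to 751 CPM in the CA (−1.04 ± 0.22, FDR = 0.0209). The medians were 0.20 for 10 microglia genes, 0.15 for 8 endothelial genes and −0.26 for 7 ependymal genes, while 9 thalamic genes had a median of 0.24 and 0 DEGs. The choroid plexus median of −4.08 over 4 genes rests on CA Sal 2, in which Ttr was at 1904 CPM, against 0.174 to 13.2 CPM in the other 7 samples.

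**Figure D3:**
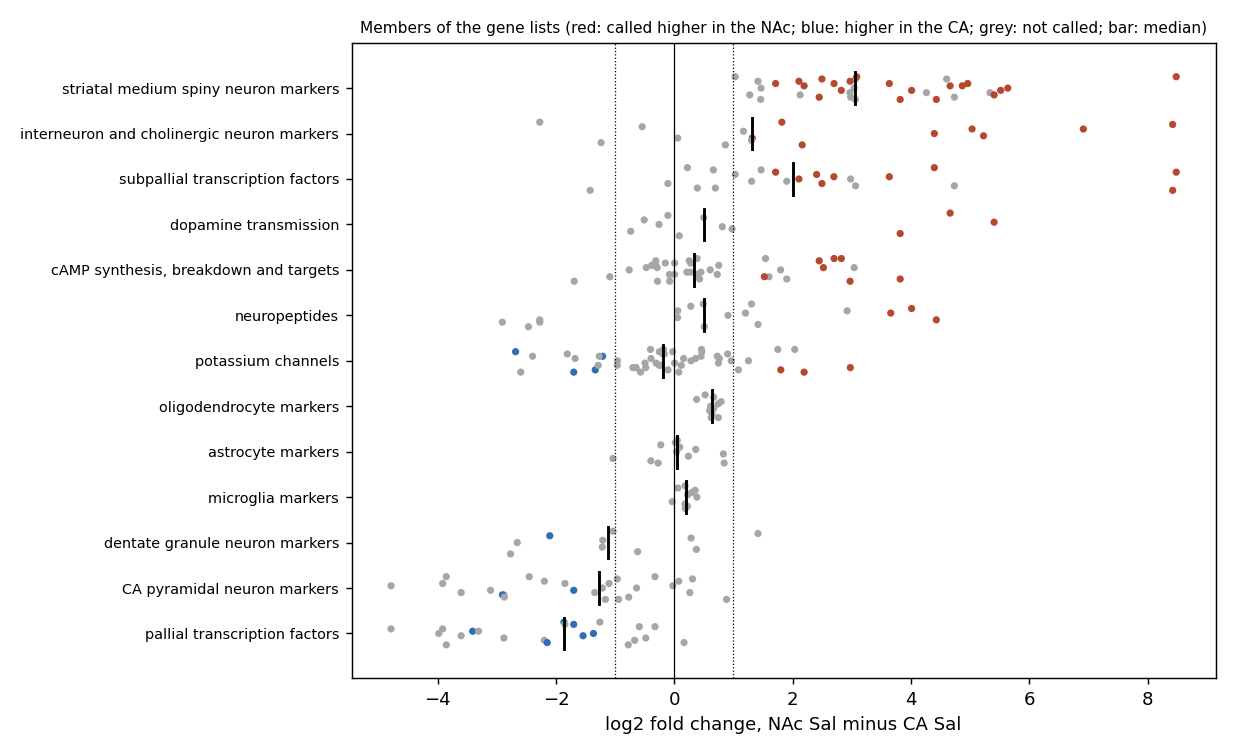
Each point is a member of a gene list at its log2 fold change (NAc Sal minus CA Sal), coloured red or blue where it was called higher in the NAc or in the CA and grey where it was not called. Black bars are list medians and dotted lines mark 2-fold. Medium spiny markers (median 3.06, 20 of 35 called) and subpallial factors (2.00, 9 of 22) lie on the NAc side. Pallial factors (−1.86, 6 of 22) and CA pyramidal markers (−1.28, 2 of 26) lie on the CA side. The medians of astrocyte (0.04) and microglia (0.20) markers are near 0. All 12 oligodendrocyte markers lie above 0 (median 0.64). These 3 lists have 0 calls, against 1.84% of all genes tested.

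Whether the regional differences held in animals that received METH was examined in the 4 NAc METH and 4 CA METH samples, which share no library with the saline samples and received METH at 10 mg/kg in the same schedule. Of the 149 genes higher in NAc Sal, 141 passed the filter there, and 141 of these had a log2 fold change above 0, against 59.7% of all genes tested. The median log2 fold change of these genes was 1.65, and 38 of them were DEGs by the same rule. That count was 10 with the replicate block, and 12, 15, 15, 24, 10 and 8 without NAc METH 1, NAc METH 2, NAc METH 4, CA METH 1, CA METH 2 and CA METH 4. Of the 122 genes higher in CA Sal, 120 passed the filter, all 120 were lower in the NAc and 66 were DEGs, with a median of −1.47. Here the count was 30 with the block, and 43, 43 and 37 without NAc METH 1, NAc METH 4 and CA METH 4. Over all 14805 genes tested, 77 (0.52%) were called higher in the NAc and 180 (1.22%) in the CA, 1.74% together. Chat was at 14.1, 15.7, 22.6 and 13.8 CPM in NAc METH and 0.172, 0, 2.28 and 0.0721 CPM in CA METH (4.63 ± 0.79, FDR = 0.00941). Drd1 was at 189.9, 223, 7.15 and 224 CPM against 13.7, 9.12, 21.7 and 11.2 CPM (3.57 ± 0.84, FDR = 0.0316), and Ppp1r1b was at 40.8 CPM in NAc METH 3 and 791 to 1007 CPM in the others. NAc METH 3 thus held less Drd1 than the CA samples but more Chat than any other METH sample of the NAc or CA, while CA METH 3 was the CA sample with the most Chat. A fit without NAc METH 3 was added after these values were seen, and Drd1 and Ppp1r1b are themselves among the 149. It called 301 genes higher in the NAc and 361 in the CA, 100 of the 149 and 83 of the 122 among them. The FDR of Drd1 was then 6.42e-05 by edgeR's quasi-likelihood test. These values cannot be told apart from the choice of the sample left out, and give no separate support.

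**Figure D4:**
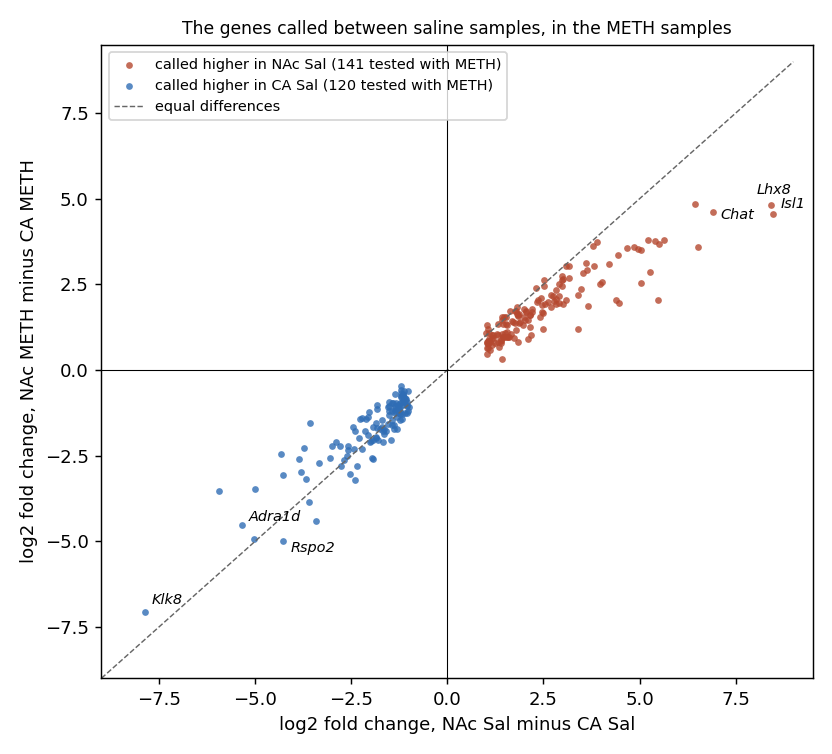
Each point is a gene called between the saline samples, with its log2 fold change (NAc minus CA) in saline samples on the horizontal axis and in METH samples on the vertical axis, for the 141 and 120 genes that passed the filter with METH. Every point has the same sign on both axes. Isl1 lies at 8.48 and 4.56, below the dashed line of equal differences, and Rspo2 at −4.28 and −4.99.

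The size of the differences was not shown to depend on the treatment. In 1 fit of the 16 NAc and CA samples, the difference between regions differed between saline and METH at an FDR under 0.05 for 0 of 15385 genes by edgeR's quasi-likelihood test, with 367 at an unadjusted p under 0.05 and a lowest FDR of 1.00. Immediate early genes, of which 6 of 18 had a log2 fold change above 0 in saline samples, had 0 of 18 above 0 with METH (median −0.84), and the difference between these medians was not tested.

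The same genes were followed in other regions of saline-treated animals, the SVZ (subventricular zone), which borders the striatum, and the DG (dentate gyrus), which borders the CA. By the same rule 0 of 15128 genes were called between all SVZ Sal and DG Sal samples, with 1666 at an unadjusted p under 0.05 (11%). Of the genes higher in the NAc, 142 of 148 tested had higher levels in the SVZ, with a median log2 fold change (SVZ minus DG) of 1.03, and of the genes higher in the CA, 110 of 114 had higher levels in the DG, with a median of −0.95. Among all genes tested 55.4% were above 0. In this pair a library of each region stood apart, since DG Sal 3 held Drd1 at 121 CPM (4.91 to 15.8 CPM in the other DG samples) and SVZ Sal 1 at 21.2 CPM (167 to 226 CPM in the other SVZ samples). Both libraries were left out after their values were seen, and Drd1 is itself among the genes followed. Larger differences without them are therefore in part built in, and give no separate support. Without both of them the median was 1.98 over 148 genes higher in the NAc, of which 146 were above 0. It was −1.28 over 116 genes higher in the CA, of which 115 were below 0. In that fit 54.1% of all genes were above 0. Of 15163 genes tested in that fit, 91 (0.6%) were called higher in the SVZ and 42 (0.277%) in the DG, among them 58 of the genes higher in the NAc and 10 of those higher in the CA.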

How the data were processed

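The 4 NAc Sal and 4 CA Sal samples were compared, and the 4 NAc METH, 4 CA METH, 4 SVZ Sal and 4 DG Sal samples were used to follow the same genes. The authors trimmed reads with cutadapt 2.7, checked them with FastQC 0.11.4, aligned them to rn6 with STAR 2.5.2b and deposited unnormalized gene counts per sample from featureCounts 1.6.3, made without strand. File headers name an Ensembl annotation and the methods a UCSC annotation. A count matrix of the series served only as an alternative, and 24 of its columns were not used.

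Counts of the 8 samples were scaled by the upper quartile, filtered with filterByExpr and tested with the quasi-likelihood test of edgeR 4.0.16 (R 4.3.3, limma 3.58.1), with DESeq2 1.42.0 as an alternative. Tables were made with pandas 2.3.3, numpy 2.4.6 and scipy 1.17.1 and figures with matplotlib 3.10.9, under Python 3.11.15. The methods of the study also removed RUVr factors, the number of which is not given in the sources used here. The SE follows from the fold change and the F value of the test. Intervals of read ratios are exact binomial and cover counting error only. A depth of 11094002 counts or more makes 3 reads worth at most 0.261 CPM, so levels below this are not distinguishable from a count of 0.

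The genes compared, the 30 gene lists and the motifs were chosen with earlier results of these data known. Named genes are, among DEGs whose groups do not overlap and whose mean is at least 5 CPM, the 10 with the largest change and the 5 with the lowest FDR in each direction. From each list up to 6 DEGs with the lowest FDR were added, and up to 3 members against the direction of the others with an unadjusted p under 0.05. Dopamine receptors, opioid peptides and receptors, retinoid receptors and corticosteroid receptors that were tested were added whatever their result. Names beginning AABR, LOC or RGD were counted and not named, and some genes that the rule chose are not reported here. Slc10a4, Prima1, Klk8, Neurod6, Dlx1, Dlx2, Sst, Prox1, Gfap, Ttr, Fos, Egr1, Kcnj2 and the overlapping genes fall outside the rule and were chosen after their values were seen.

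Same-numbered NAc Sal and CA Sal samples share a library number in the file headers and deviated together across genes, with correlations of 0.140, 0.238, 0.194 and 0.101, so the replicate number was treated as a pairing of the samples. The fit without the block is the one reported, since the study used none. No 2 samples of a group were repeats of 1 library. The alternatives were TMM, DESeq2, the block, each sample left out, the likelihood ratio test, a robust fit and other filters and thresholds. A fit of all saline samples, the series matrix and the exclusion of 171 gene names on more than 1 chromosome were also used. As a covariate, the RNA integrity number, samples 1 and 2 against 3 and 4, the run read from file headers, or 1 RUVr factor was added. Fits of samples 1 and 2 or 3 and 4 alone, and those without NAc METH 3 or without DG Sal 3 and SVZ Sal 1, were added after seeing the data. On data simulated for the first comparison with a dispersion of 0.05, 200 of 200 genes changed 4-fold were recovered among 14843 tested with 0 wrong calls. With a dispersion of 0.1 it was 195 of 200 among 14834 with 2 wrong calls. Changed genes were drawn only from those with many reads, all genes shared 1 dispersion, and no simulated sample stood apart. The simulation therefore does not measure the error rate or power in these uneven samples.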

Additional observations from a re-analysis of the deposited data

Results flagged for a closer look

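In each group of 4 saline samples, the sample farthest from the others was marked where its gap to the nearest one, as a share of the range, exceeded Dixon's 95% limit. Of 308 groups tested, over the named genes and the summed lists, 23 were marked, 10 in NAc Sal and 13 in CA Sal, and chance marks about 1 group in 20. All values are CPM.

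CA Sal 2 was the sample apart for the cholinergic and striatal genes Isl1 (0.156 against 0), Lhx8 (0.234 against 0), Slc5a7 (3.82 against 1.57 to 1.68) and Adora2a (17.9 against 1.68 to 3.21). The Isl1 and Lhx8 values of this sample are worth 2 and 3 reads. CA Sal 2 was also apart for Nf1x (147 against 217 to 221), Grp (8.5 against 2.28 to 3.25) and the summed choroid plexus markers (2342 against 5.55 to 20.6). CA Sal 4 was apart for Rxrb (63.3 against 51.9 to 52.8) and the summed immediate early genes (1359 against 746 to 798). CA Sal 1 was apart for the summed medium spiny markers (1167 against 1360 to 1392), neuropeptides (235 against 387 to 413) and corticosteroid genes (662 against 430.3 to 459), and for Aldh1a1 (29.9 against 10.8 to 13.7).

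NAc Sal 4 was apart for genes with a higher mean in the CA, called or not, namely Slc17a7 (663 against 4.95 to 114), Rspo2 (10.0 against 1.37 to 2.54), Wnt4 (9.25 against 3.91 to 4.63), Trpc6 (10.3 against 6.70 to 6.97) and Vip (6.29 against 0.771 to 1.24). NAc Sal 2 was apart for Pde8b (84.1 against 139 to 149), Efnb2 (74.4 against 119.7 to 125), Cacna2d2 (259 against 149 to 168) and the summed ependymal markers (74.4 against 17.7 to 21.9). NAc Sal 3 was apart for Glrx (15.8 against 18.1 to 18.6).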

How the results depend on the processing

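Of the saline calls, 149 genes were higher in the NAc and 122 in the CA. Other settings gave, in the NAc and CA respectively, 426 and 507 with DESeq2, 428 and 417 with the likelihood ratio test, 278 and 284 with 1 RUVr factor, 92 and 36 with the RNA integrity number, 90 and 55 with samples 1 and 2 against 3 and 4 as a covariate, 413 and 410 at an FDR under 0.05, and 176 and 190 with no filter. There were 0 and 0 in the fit of all saline samples, with the run as a covariate and with samples 1 and 2 only, and 1 and 0 with samples 3 and 4 only. In these 4 fits 3745, 1401, 2365 and 2894 genes had an unadjusted p under 0.05. Leaving out 1 sample gave 12 to 157 and 2 to 235 calls with saline, and 16 to 301 and 80 to 361 with METH, where DESeq2 called 267 and 443. Fewer samples in a fit is part of its construction. Otherwise the cause was not tested. The TMM counts of 139 and 160 differed by less than 1.5 times from those reported.

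With the replicate block the saline counts were 29 and 10, and the METH counts 20 and 68. The METH samples share only a number, since their same-numbered correlations were 0.245, −0.03, −0.11 and 0.152 and not every sample correlated best with its own number. Of the saline samples, NAc Sal 4 (0.153 with CA Sal 3) and CA Sal 4 (0.103 with NAc Sal 1) did not either. With METH the calls were fewer than the 77 and 180 without the block.

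The median SVZ minus DG difference of genes higher in NAc Sal was 1.76 without DG Sal 3 and 1.98 without DG Sal 3 and SVZ Sal 1, against 1.03. Over the 8 samples left out in turn it was 0.83 to 1.76.

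Of 3022 values of the 126 named genes, 20 changed sign, 0 of them of the 78 DEGs, 799 no longer passed the threshold and 64 newly passed it. The sign changed for Rgs14 (0.0099) and Cdh7 (−0.12) with the run, for Drd5 (0.26) with samples 1 and 2 only, and for Oprl1 with the run (0.049) and without NAc Sal 1 (0.12; −0.55 to 0.12 over the samples left out). For Pnoc it changed with DESeq2 (−0.0036), the block (−0.18), the RNA integrity number (−0.016), 1 RUVr factor (−0.24), the run (−0.11), samples 3 and 4 only (−0.069) and without NAc Sal 2 (−0.48; −0.48 to 0.38 over the samples left out). For Rxra it changed with the block (0.019), the RNA integrity number (0.0077), samples 1 and 2 against 3 and 4 as a covariate (0.0059), samples 1 and 2 only (0.30) and without single samples (−0.16 to 0.16).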
